A study of Mus musculus with 12 samples.

Results

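The genes described here are 8 members of the SR family of splicing factors (Srsf1, Srsf2, Srsf3, Srsf5, Srsf6, Srsf7, Srsf10 and Srsf11) and Clk1 and Clk4, 2 kinases that phosphorylate SR proteins. Every probe set of the array annotated to 1 of these genes alone was taken and kept separate. This gave 33 probe sets of 45101 in the deposited table and covered 9 of the 10 genes, or 9 of 18193 genes named there. Srsf7 is not analysed here. Clk1 and Srsf5 had 1 probe set each, Clk4 had 2, Srsf2, Srsf6, Srsf10 and Srsf11 had 4 each, Srsf3 had 6 and Srsf1 had 7. Probe sets naming a further gene were not taken.

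The cells were STHdh striatal lines from embryos of huntingtin knock-in mice, profiled on Affymetrix MG430 2.0 arrays. STHdhQ111/Q111 cells (Q111 cells), homozygous for an expanded polyglutamine allele, were measured after 6 h at 42 °C and untreated at their growth temperature of 33 °C. STHdhQ7/Q7 cells (Q7 cells), homozygous for the wild-type allele, were measured after the same heat shock and untreated at 33 °C. Each of the 4 groups had 3 arrays. Both lines were grown in serum with the selection drug G418. Such lines are kept dividing by a temperature-sensitive large T antigen, a background fact that the labels do not state, and the activity of that antigen at 42 °C was not measured here. Each genotype is a single line, so genotype and line cannot be told apart.

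SR proteins carry RNA recognition motifs and a tail rich in arginine and serine dipeptides, the RS domain. They bind enhancers in exons and recruit the spliceosome, and several also act in mRNA export. Clk kinases phosphorylate RS domains in the nucleus and release SR proteins from nuclear speckles. Many SR genes control their own mRNA through a poison exon that sends the transcript to nonsense-mediated decay, and Clk1 and Clk4 transcripts keep introns that are removed upon stress. Transcripts of 1 of these genes can therefore move in different directions, and for that reason each probe set is given by itself.

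Levels are log2 values as deposited, and a change is a difference of log2 group means with its standard error (SE). A probe set was called when its adjusted p was under 0.05 in limma, with Benjamini-Hochberg adjustment over all 45037 probe sets fitted. Nothing in the labels says that the 3 arrays of a group came from separate cultures, so the p-values speak of the spread between arrays alone, possibly a technical one, and the number of arrays limits the precision. A probe set ending in _a_at is designed to match several transcripts of 1 gene. The ending _s_at marks probes shared by transcripts that may come from different genes, and _x_at marks probes that may cross-hybridise. The signal of an _s_at probe set may thus include other genes, although the annotation names 1. Where in each transcript the probes lie was not used here. Of the 33 probe sets only Srsf1 1457136_at stayed at or under 5.14 on all 12 arrays, the highest level of control probe sets for unspiked bacterial RNA.

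All 6 heat shock genes used as a check, among them Hspa1a, rose in both lines (Hspa1a by 6.48 in Q111 cells and 5.48 in Q7 cells). Above the control level in all groups were 5 of 7 fibroblast genes, 3 of 8 neural progenitor genes, 3 of 8 neuronal genes, 2 of 6 astrocyte genes, 2 of 6 oligodendrocyte lineage genes and 1 of 7 striatal projection neuron genes. The neural progenitor genes Sox2 and Pax6 averaged 3.96 and 5.17 in heat-shocked Q111 cells and 4.71 and 5.00 in untreated Q111 cells, against 10.96 and 10.21 in heat-shocked Q7 cells and 10.60 and 9.59 in untreated Q7 cells. Nes and Fabp7 averaged 5.68 and 4.24 in untreated Q111 cells, against 9.28 and 6.83 in untreated Q7 cells. Msi1 went the other way there, at 8.14 against 7.75. Sox1, Prom1 and Hes5 were at 4.43, 3.02 and 5.33 in untreated Q111 cells and 4.36, 3.18 and 5.36 in untreated Q7 cells. The summed level of the 8 progenitor genes ran from 38.8 to 39.7 in heat-shocked and 39.7 to 41.6 in untreated Q111 cells, and from 53.9 to 55.4 in heat-shocked and 56.6 to 57.5 in untreated Q7 cells, and the part of this gap in differences between the lines was not tested. Among microglial and endothelial genes 0 of 6 and 0 of 5 were above the control level in all groups. In bulk RNA, fewer cells of a type and less RNA per cell cannot be told apart. The 3' minus 5' signal of the actin control probe sets, a measure of degraded or incompletely copied RNA, averaged 1.25 ± 0.23 in heat-shocked and 0.72 ± 0.36 in untreated Q111 cells, and 1.48 ± 0.12 in heat-shocked and 0.54 ± 0.16 in untreated Q7 cells (SD, n = 3). Among untreated arrays replicate 2 was lowest for 20 of the 33 probe sets in Q111 cells and for 17 in Q7 cells, and replicate 1 was highest for 16 and 22. In untreated Q111 cells the actin signal was 1.14 on replicate 2, against 0.49 and 0.53 on replicates 1 and 3. The like signal of Gapdh was 1.15 there, against 0.67 and 0.74. Replicate 2 of untreated Q7 cells had an actin signal of 0.38, the lowest of its group.

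After heat shock 13 of the 33 probe sets were called in Q111 cells, 9 higher in 6 genes and 4 lower in 2 genes. This share of 39.4% lies near the 42.1% of all probe sets that were called in that comparison (19.8% higher and 22.3% lower). In Q7 cells 15 were called, 11 higher in 7 genes and 4 lower in 2 genes, a share of 45.5% beside 24.1% of all probe sets (10% higher and 14.1% lower). With only probe sets averaging at or above the control level, the same 13 and 15 were called. Of all those kept, 55.5% were called in Q111 cells and 40.1% in Q7 cells. Both kinases, Srsf2, Srsf10, Srsf11 and Srsf3 each had at least 1 probe set that rose in both lines, whereas Srsf5 and Srsf6 fell in both. In all, 12 probe sets were called in both lines in the same direction, 8 higher and 4 lower, and 0 in opposite directions. The arrays of heat-shocked and untreated cells did not overlap for any called probe set. Called or not, 11 of the 33 were higher and 5 lower without overlap in Q111 cells, beside 51.3% of all probe sets. In Q7 cells 17 were higher and 8 lower without overlap, beside 43.2% of all probe sets. The median change of the 33 probe sets was 0.14 in Q111 cells, beside 0.05 over all probe sets, and 0.17 in Q7 cells, beside 0.02.

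These counts moved with scaling, with a covariate and with single arrays. With arrays centred on ribosomal protein probe sets, which lowered every change by 0.39 in Q111 cells and 0.36 in Q7 cells, 6 were higher and 13 lower in Q111 cells and 4 were higher and 7 lower in Q7 cells. With the actin 3' minus 5' signal as a covariate 10 were called in Q111 cells and 1 in Q7 cells (16.3% and 1.26% of all probe sets). All 15 changes called in Q7 cells kept their sign there, and 9 were at least as large, while their SEs were 1.87 to 2.09 times those without the covariate. Clk4 1427663_a_at was then at 1.99 (SE 0.64) and Srsf1 1452430_s_at at 2.22 (SE 0.80), and the 3 that shrank by more than 1.5 times were Srsf5, Srsf10 1423982_at and Srsf3 1416152_a_at. In Q7 cells the actin signal was 0.38 to 0.69 on untreated and 1.35 to 1.60 on heat-shocked arrays, without overlap. Its part in the changes and that of heat shock therefore cannot be told apart there. Without untreated replicate 2 of Q7 cells the Q7 count was 8, the calls of Clk1, Clk4 1427663_a_at, Srsf1 1452430_s_at, Srsf3 1416152_a_at, Srsf5, Srsf10 1423982_at and Srsf11 1452371_at being lost.

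**Figure D1:**
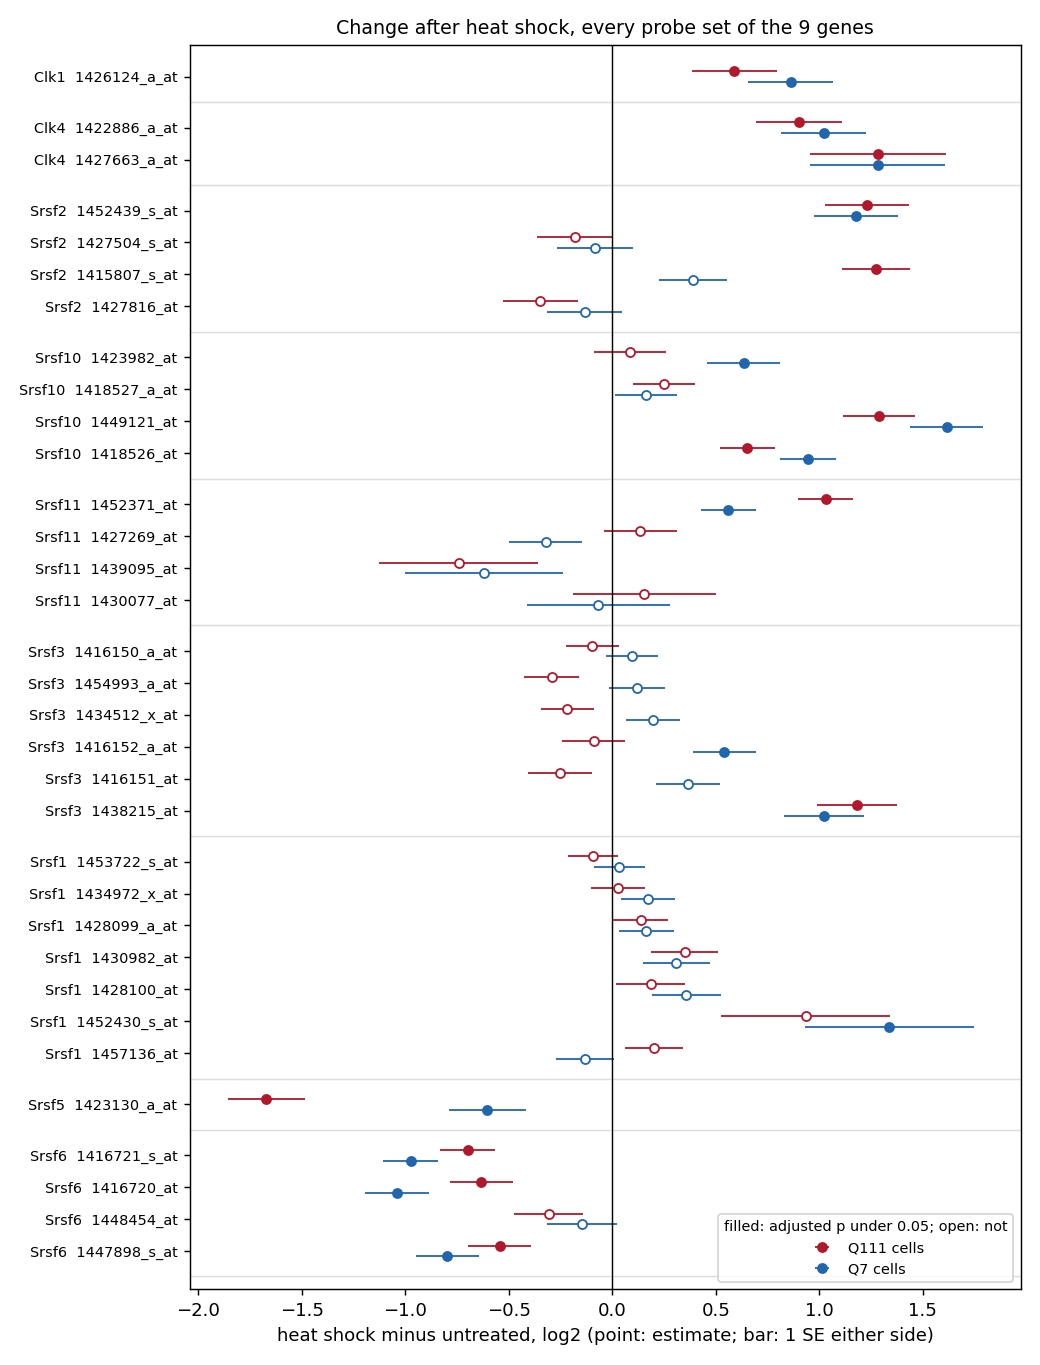
Change after heat shock of all 33 probe sets, in log2 units, grouped by gene with the brightest probe set of each gene on top; red is Q111 cells, blue is Q7 cells, bars are 1 SE either side and filled points passed the adjusted p of 0.05. Clk1, Clk4, all 4 Srsf10 probe sets and some of Srsf1, Srsf2, Srsf11 and Srsf3 lie to the right of 0 in both lines. Srsf5 and all 4 Srsf6 probe sets lie to the left. Within Srsf1, Srsf2, Srsf3, Srsf10 and Srsf11 the points spread by more than 1 unit in Q111 cells.

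Clk1 and Clk4 encode dual-specificity kinases of the CDC2-like family. The Clk1 probe set (1426124_a_at) read 11.78, 11.92 and 11.87 in heat-shocked Q111 cells, against 11.72, 10.84 and 11.24 in untreated Q111 cells. It read 12.13, 12.19 and 12.10 in heat-shocked Q7 cells, against 11.49, 11.06 and 11.28 in untreated Q7 cells. All heat-shocked arrays lay above all untreated arrays of their line, although untreated replicate 1 of Q111 cells came close to the lowest heat-shocked one. Clk1 rose by 0.59 in Q111 cells (SE 0.21, adjusted p = 0.0387) and by 0.86 in Q7 cells (SE 0.21, adjusted p = 0.0104), which is 1.51-fold and 1.82-fold. The Q111 call is fragile: without untreated replicate 2 the change was 0.38 (adjusted p = 0.14), and 13 of 23 alternatives lost it.

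Clk4 was measured by 2 probe sets that moved alike. The brighter, 1422886_a_at, read 10.72, 10.90 and 10.73 in heat-shocked Q111 cells, against 10.35, 9.50 and 9.80 in untreated Q111 cells. In heat-shocked Q7 cells it read 10.68, 10.89 and 10.90, against 10.04, 9.72 and 9.64 in untreated Q7 cells. The groups did not overlap in either line, and the untreated arrays were the more scattered, with an SD of 0.43 in Q111 cells. Clk4 rose by 0.90 in Q111 cells (SE 0.21, adjusted p = 0.0056) and by 1.02 in Q7 cells (SE 0.21, adjusted p = 0.00429). The second, 1427663_a_at, rose by 1.28 in each line (SE 0.33, adjusted p = 0.00954 in Q111 cells and 0.0147 in Q7 cells), or 2.44-fold and 2.43-fold. Its change exceeded that of the first by 0.38 in Q111 cells and 0.26 in Q7 cells, neither called (adjusted p = 0.128 and 0.353). With arrays centred on ribosomal protein probe sets 1422886_a_at lost its call in Q111 (0.51, adjusted p = 0.0979) and Q7 cells (0.66, adjusted p = 0.0504). There 1427663_a_at lost its Q7 call (0.92, adjusted p = 0.0564), while its Q111 call held in all 23 alternatives. With the actin covariate the Q7 changes were 1.33 and 1.99, and neither was called (adjusted p = 0.177 and 0.182).

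Over the 12 arrays the gene with the profile closest to Clk1, each profile centred on its own mean, was G2e3, a ubiquitin ligase gene, with a mean absolute difference of 0.075 log2 units among 12194 genes compared. It was followed by Nfyb, a subunit of the CCAAT-binding factor NF-Y, by the cell cycle kinase gene Cdk2 and by Bpnt1, a phosphatase gene, at 0.079 to 0.088. Nearest to Clk4 was the demethylase gene Alkbh4 at 0.085, followed by Kmt2c, a histone methyltransferase gene, and by the kinase genes Map3k2 and Pdpk1 at 0.11. These 8 genes changed by 0.43 to 0.92 in Q111 cells and by 0.76 to 1.22 in Q7 cells.

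**Figure D2:**
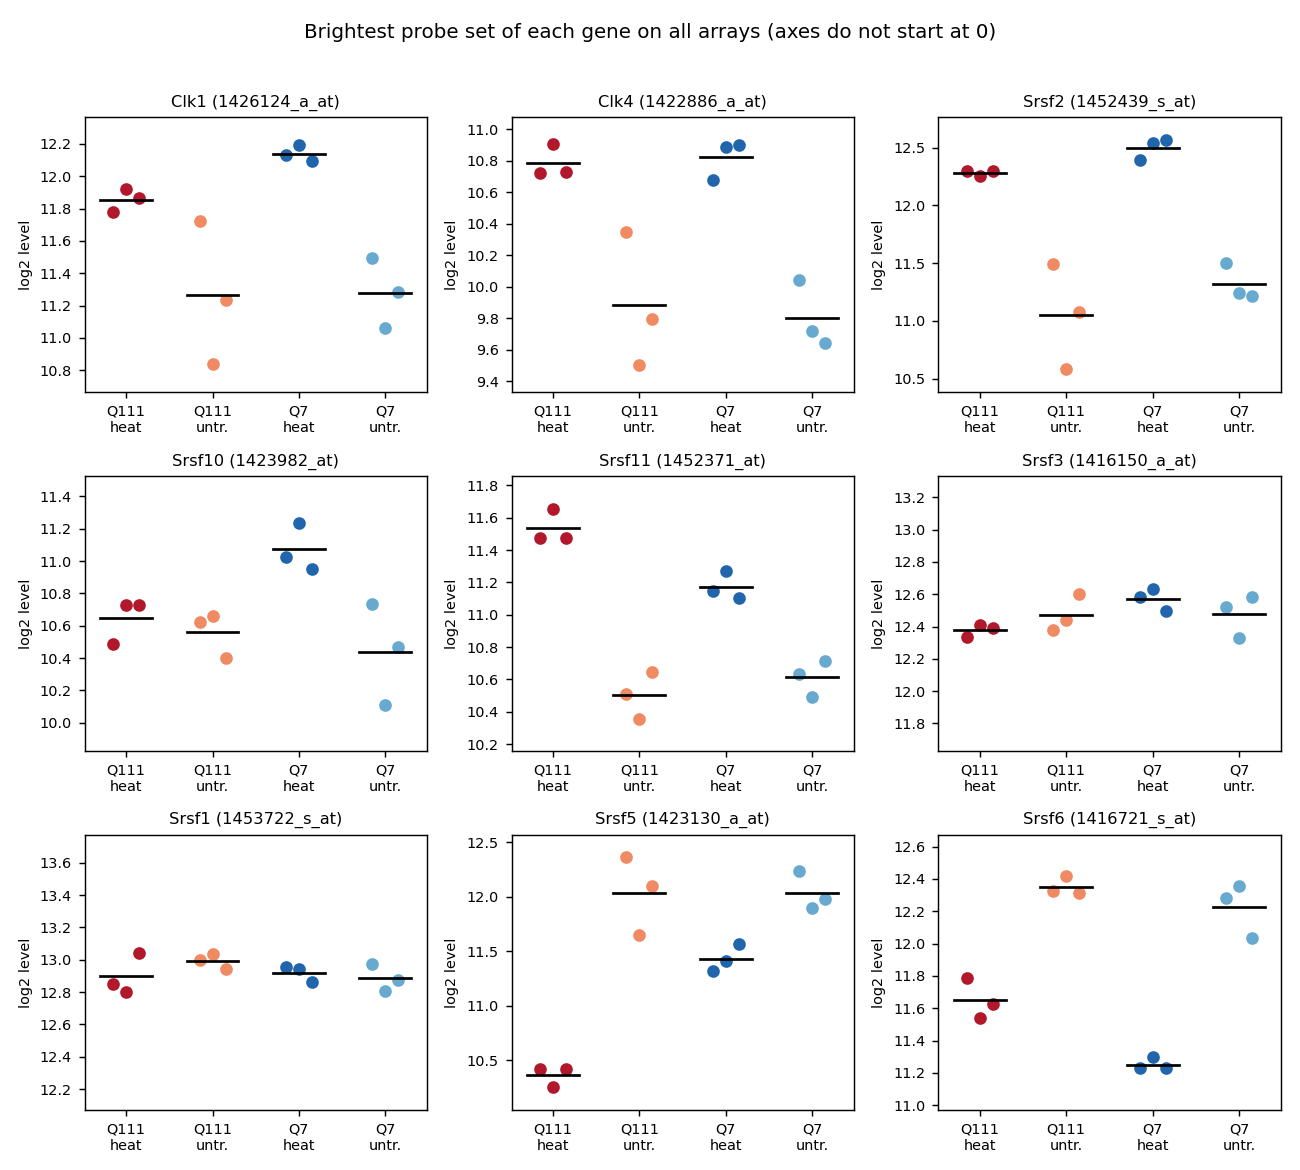
Log2 level on each array of the brightest probe set of the 9 genes, from left to right in heat-shocked Q111, untreated Q111, heat-shocked Q7 and untreated Q7 cells; points are arrays, lines are means of 3, and the vertical axes differ and do not start at 0. Clk1, Clk4, Srsf2 and Srsf11 are higher on every heat-shocked array of a line than on its untreated arrays, Srsf5 and Srsf6 are lower, and Srsf1 and Srsf3 overlap.

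Srsf10 (SRp38) is the SR protein that is dephosphorylated upon heat shock in human cells and then represses splicing. Its probe set 1449121_at read 10.97, 11.04 and 11.04 in heat-shocked Q111 cells, against 10.05, 9.47 and 9.67 in untreated Q111 cells. It read 11.43, 11.50 and 11.16 in heat-shocked Q7 cells, against 9.95, 9.73 and 9.56 in untreated Q7 cells. The groups were apart in both lines by more than the range within any of them. This probe set had the highest positive change of the 33 in either line, 1.29 in Q111 cells (SE 0.18, adjusted p = 0.000268) and 1.62 in Q7 cells (SE 0.18, adjusted p = 0.000105), or 2.45-fold and 3.06-fold. It was also the only 1 whose call in Q7 cells held in all 23 alternatives. A second, 1418526_at, rose by 0.65 in Q111 cells and 0.95 in Q7 cells (SE 0.13, adjusted p = 0.00296 and 0.000503). The brightest, 1423982_at, rose by 0.63 in Q7 cells (SE 0.18, adjusted p = 0.022) and was at 0.09 in Q111 cells (adjusted p = 0.714). This rise was 0.18 with the actin covariate (SE 0.33, adjusted p = 0.904), and its call was also lost without heat-shocked replicate 2 (0.55, adjusted p = 0.0874) or untreated replicate 2 of Q7 cells (0.47, adjusted p = 0.0961). The last, 1418527_a_at, was at 0.25 in Q111 and 0.16 in Q7 cells, with no call in either line.

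Srsf2 (SC35), a regulator of exon inclusion that represses its own mRNA, differed by probe set. The brightest, 1452439_s_at, read 12.30, 12.25 and 12.29 in heat-shocked Q111 cells, against 11.49, 10.58 and 11.07 in untreated Q111 cells. In heat-shocked Q7 cells it read 12.39, 12.54 and 12.56, against 11.50, 11.24 and 11.22 in untreated Q7 cells. Heat-shocked arrays were close to each other and lay above all untreated ones. The rise was 1.23 in Q111 cells (SE 0.20, adjusted p = 0.000849) and 1.18 in Q7 cells (SE 0.20, adjusted p = 0.00167). Probe set 1427504_s_at, at a mean of 11.02 in heat-shocked and 11.20 in untreated Q111 cells, was at -0.18 in Q111 and -0.08 in Q7 cells and passed in neither. The dimmest, 1427816_at, was at -0.35 in Q111 and -0.13 in Q7 cells. Its mean over all arrays was 5.99, above but near the control level.

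A further Srsf2 probe set, 1415807_s_at, read 10.29, 10.43 and 9.88 in heat-shocked Q111 cells, against 9.01, 8.79 and 8.98 in untreated Q111 cells. In heat-shocked Q7 cells it read 9.60, 9.51 and 9.82, against 9.23, 9.34 and 9.20 in untreated Q7 cells. The groups did not overlap in either line, but the gap was wider in Q111 cells. It rose by 1.28 in Q111 cells (SE 0.16, adjusted p = 0.000193) and was 0.39 higher in Q7 cells (SE 0.16, adjusted p = 0.113), the sole probe set called in Q111 cells but not in Q7 cells.

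Srsf11, an SR-related protein that binds the U2AF splicing factor, was higher by its brightest probe set only. That probe set, 1452371_at, read 11.48, 11.66 and 11.47 in heat-shocked Q111 cells, against 10.51, 10.36 and 10.64 in untreated Q111 cells. In heat-shocked Q7 cells it read 11.15, 11.27 and 11.10, against 10.63, 10.49 and 10.72 in untreated Q7 cells. Both lines were clear of overlap. It rose by 1.03 in Q111 cells (SE 0.13, adjusted p = 0.000204) and by 0.56 in Q7 cells (SE 0.13, adjusted p = 0.0104). The other 3 were not called: 1427269_at was at 0.14 in Q111 and -0.32 in Q7 cells, 1430077_at at 0.16 in Q111 and -0.07 in Q7 cells, and 1439095_at at -0.74 in Q111 and -0.62 in Q7 cells. Heat-shocked replicate 3 of Q111 cells stood at 7.63 for 1439095_at, while the other 2 arrays reached at most 6.02, and without it the change in Q111 cells was -1.28 (adjusted p = 0.00197).

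Srsf3 (SRp20), the smallest SR protein and an adaptor for mRNA export, differed sharply between its probe sets. The dimmest of the 6, 1438215_at, read 9.23, 9.24 and 9.17 in heat-shocked Q111 cells, against 8.45, 7.65 and 7.99 in untreated Q111 cells. It read 9.24, 9.22 and 9.28 in heat-shocked Q7 cells, against 8.33, 7.97 and 8.38 in untreated Q7 cells. The heat-shocked arrays were close to each other and lay above every untreated one. The rise was 1.18 in Q111 cells (SE 0.19, adjusted p = 0.000815) and 1.02 in Q7 cells (SE 0.19, adjusted p = 0.00289). The other 5 were at -0.29 to -0.09 in Q111 cells, where none was called, and at 0.10 to 0.54 in Q7 cells, where 1416152_a_at rose by 0.54 (SE 0.15, adjusted p = 0.0225), or 0.35 with the actin covariate (SE 0.31, adjusted p = 0.732). In Q111 cells 1454993_a_at was called at -0.39 without heat-shocked replicate 2 (adjusted p = 0.0446), and 4 of these 5 were called lower with arrays centred on ribosomal protein probe sets.

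Srsf1 (SF2/ASF), the founding member of the family, had 7 probe sets. Its brightest, 1453722_s_at, read 12.85, 12.80 and 13.04 in heat-shocked Q111 cells, against 13.00, 13.03 and 12.94 in untreated Q111 cells, and was at -0.09 in Q111 and 0.03 in Q7 cells (95% intervals -0.36 to 0.18 and -0.24 to 0.30). Probe set 1452430_s_at read 10.08, 10.01 and 10.15 in heat-shocked Q111 cells, against 10.04, 8.24 and 9.15 in untreated Q111 cells. In heat-shocked Q7 cells it read 10.44, 10.41 and 10.11, against 9.69, 8.38 and 8.87 in untreated Q7 cells. The untreated arrays spanned more than 1 unit in both lines, and in Q111 cells the groups overlapped. The change was 0.94 in Q111 cells (SE 0.41, adjusted p = 0.0866, or 0.0436 with the replicate number as a block) and the rise in Q7 cells was 1.34 (SE 0.41, adjusted p = 0.0348). Leaving out untreated replicate 1 gave 1.38 in Q111 cells (adjusted p = 0.0158), and leaving out untreated replicate 2 of Q7 cells gave 1.04 there (adjusted p = 0.144). The remaining 6 probe sets, the brightest included, were at -0.13 to 0.36 in both lines with no call.

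Srsf5 (SRp40), a splicing activator that binds exonic enhancers, had the lowest change of the 33 probe sets in Q111 cells. Its probe set, 1423130_a_at, read 10.42, 10.25 and 10.42 in heat-shocked Q111 cells, against 12.36, 11.65 and 12.10 in untreated Q111 cells. It read 11.32, 11.41 and 11.57 in heat-shocked Q7 cells, against 12.24, 11.89 and 11.98 in untreated Q7 cells. Every heat-shocked array lay below every untreated one, and the Q111 arrays after heat shock lay below all others. Srsf5 fell by 1.67 in Q111 cells (SE 0.19, adjusted p = 8.17e-05), which is 3.19-fold lower, and by 0.60 in Q7 cells (SE 0.19, adjusted p = 0.0355), which is 1.52-fold lower. The Q111 call held in all 23 alternatives. The Q7 call was lost without any 1 of the 6 Q7 arrays, when the change ran between -0.68 and -0.50. With the actin covariate the change in Q7 cells was -0.21 (SE 0.36, adjusted p = 0.895), and that in Q111 cells was -1.45 (SE 0.25, adjusted p = 0.00578).

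Srsf6 (SRp55), which has been linked to the incomplete splicing of mutant huntingtin transcripts, fell by 3 of its 4 probe sets. The brightest, 1416721_s_at, read 11.79, 11.54 and 11.63 in heat-shocked Q111 cells, against 12.33, 12.42 and 12.31 in untreated Q111 cells. In heat-shocked Q7 cells it read 11.23, 11.30 and 11.23, against 12.28, 12.36 and 12.03 in untreated Q7 cells. The groups were apart in both lines. It fell by 0.70 in Q111 cells (SE 0.13, adjusted p = 0.00197) and by 0.97 in Q7 cells (SE 0.13, adjusted p = 0.000411). Probe set 1416720_at fell by 0.63 in Q111 and 1.04 in Q7 cells (adjusted p = 0.00746 and 0.000663), and 1447898_s_at fell by 0.54 in Q111 and 0.80 in Q7 cells (adjusted p = 0.0143 and 0.00287). The last, 1448454_at, was at -0.31 in Q111 and -0.15 in Q7 cells (adjusted p = 0.161 and 0.592). Without untreated replicate 2 of Q111 cells 1447898_s_at was at -0.40 there (adjusted p = 0.0522).

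Since Clk4 and Srsf10 rose and Srsf6 fell in both lines, the 250 bases before their annotated starts are printed next to those of the small heat shock gene Hspb1. They are the strand of the gene, from RefSeq on GRCm38.p6: Clk4 at chr11:51262864-51263113 on the plus strand, Srsf10 at chr4:135855821-135856070 on the plus strand, Srsf6 at chr2:162931258-162931507 on the plus strand and Hspb1 at chr5:135887669-135887918 on the plus strand. Capitals mark matches to GAANNTTC, 1 of the 2 arrangements of inverted units that the heat shock factor recognises.
Clk4: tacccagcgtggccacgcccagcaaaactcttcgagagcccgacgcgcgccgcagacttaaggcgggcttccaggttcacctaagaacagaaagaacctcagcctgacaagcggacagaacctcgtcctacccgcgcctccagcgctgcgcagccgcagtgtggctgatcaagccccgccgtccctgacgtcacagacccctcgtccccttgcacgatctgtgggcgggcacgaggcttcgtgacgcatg
Srsf10: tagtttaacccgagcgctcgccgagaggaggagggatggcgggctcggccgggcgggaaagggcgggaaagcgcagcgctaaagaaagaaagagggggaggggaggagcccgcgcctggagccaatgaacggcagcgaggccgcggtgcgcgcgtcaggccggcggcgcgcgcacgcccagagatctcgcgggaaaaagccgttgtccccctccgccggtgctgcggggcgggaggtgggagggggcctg
Srsf6: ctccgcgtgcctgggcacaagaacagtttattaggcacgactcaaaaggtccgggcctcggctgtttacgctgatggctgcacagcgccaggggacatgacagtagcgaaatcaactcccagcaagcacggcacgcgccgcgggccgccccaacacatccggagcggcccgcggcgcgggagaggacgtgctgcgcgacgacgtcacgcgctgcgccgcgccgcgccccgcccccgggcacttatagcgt
Hspb1: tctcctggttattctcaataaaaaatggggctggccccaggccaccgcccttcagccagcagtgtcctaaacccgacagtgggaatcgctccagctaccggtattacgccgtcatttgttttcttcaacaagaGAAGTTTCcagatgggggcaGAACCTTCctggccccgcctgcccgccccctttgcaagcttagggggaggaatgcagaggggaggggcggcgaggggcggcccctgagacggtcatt

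GAANNTTC and the other arrangement, TTCNNGAA, were searched in windows of 300 bases that run 250 bases before to 50 after each annotated start. Each motif is its own reverse complement, so a match counts for both strands, and matches of the 2 may overlap. Of 32851 windows 7.86% held GAANNTTC, 8.52% held TTCNNGAA and 15.1% held at least 1 of them. The 9 windows of 8 genes, all but Clk1, were searched, and 0 of them held either motif. Of the 6 heat shock check genes 5 had a match, Hspb1 with 2 at -117 and -97 from its start. A match is a description of letters, and no match says only that these letters are not in this window.

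Probe sets of 1 gene were then set against the brightest of that gene on the same array, which asks whether their changes differed. Of 24 such differences in 7 genes 7 were called in Q111 cells, in Srsf2, Srsf3, Srsf10 and Srsf11, a count to be read beside 37.3% of the 16752 differences over all genes. In Q7 cells 9 were called in 6 genes, beside 22.3% over all genes, and 5 without heat-shocked replicate 3 of Q7 cells. In both lines the Srsf3 probe set 1438215_at rose more than the brightest, by 1.28 in Q111 cells (SE 0.20, adjusted p = 0.000871) and by 0.93 in Q7 cells (SE 0.20, adjusted p = 0.0081). Likewise Srsf10 1449121_at rose more than the brightest by 1.20 in Q111 cells (SE 0.19, adjusted p = 0.000923) and 0.98 in Q7 cells (SE 0.19, adjusted p = 0.00457). Srsf2 1427504_s_at stayed behind its brightest partner by -1.41 in Q111 cells (SE 0.16, adjusted p = 0.000127). It did so by -1.26 in Q7 cells (SE 0.16, adjusted p = 0.000393). Srsf2 1427816_at lagged by -1.58 in Q111 and -1.31 in Q7 cells. Its mean over all arrays was 5.99, above but near the control level, against 11.79 for the brightest. Whether so dim a probe set could show a rise was not tested. Srsf11 1427269_at lagged by -0.90 in Q111 and -0.88 in Q7 cells (adjusted p = 0.00411 and 0.00712). A joint F test per gene (diffSplice of limma) called Srsf2, Srsf3, Srsf10 and Srsf11 in Q111 cells, beside 40.4% of 9010 genes. In Q7 cells it called Srsf1, Srsf2, Srsf3, Srsf6 and Srsf10, beside 25% of genes, but not Srsf11 (adjusted p = 0.14).

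Other within-gene differences were called in 1 line. In Q111 cells these were Srsf10 1418526_at at 0.57 (adjusted p = 0.0276) and Srsf11 1439095_at at -1.77 (adjusted p = 0.00488). Probe set 1439095_at was at -1.18 in Q7 cells (adjusted p = 0.0503), where it was called without any 1 of the heat-shocked Q111 arrays, whose spread enters the fit (adjusted p = 0.00122 without replicate 3). In Q7 cells they were Srsf2 1415807_s_at at -0.79 (adjusted p = 0.0235), Srsf6 1448454_at at 0.83 (adjusted p = 0.0123), Srsf1 1452430_s_at at 1.30 (adjusted p = 0.0382) and Srsf3 1416152_a_at at 0.45 (adjusted p = 0.0405). The calls of Srsf10 1418526_at in Q111 cells and of Srsf1, Srsf3 and Srsf2 in Q7 cells were lost on leaving out any of several single arrays, and that of Srsf6 without heat-shocked replicate 3 of Q7 cells. The difference between the lines was tested as well, and 0 of the 24 passed in limma, with 2 at an unadjusted p under 0.05, beside 1.59% of all differences called. With the replicate number as a block, Srsf1 1452430_s_at and Srsf11 1430077_at were called in Q111 cells too (adjusted p = 0.0357 and 0.0298). In Q7 cells, where arrays of equal number showed no steady correlation, the block ended the call of Srsf3 1416152_a_at (adjusted p = 0.0632) and added Srsf11 1439095_at (adjusted p = 0.0472). Given the actin signal as a covariate, 1 within-gene difference was called in Q7 cells, that of Srsf10 1449121_at at 1.75 (SE 0.29), and Srsf1 1452430_s_at was at 2.31 (SE 0.76). All 9 kept their sign and 8 were at least as large, with SEs 1.49 to 2.08 times as large. Srsf2 1427504_s_at was then at -1.45 (SE 0.33) and Srsf3 1438215_at at 1.38 (SE 0.39).

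**Figure D3:**
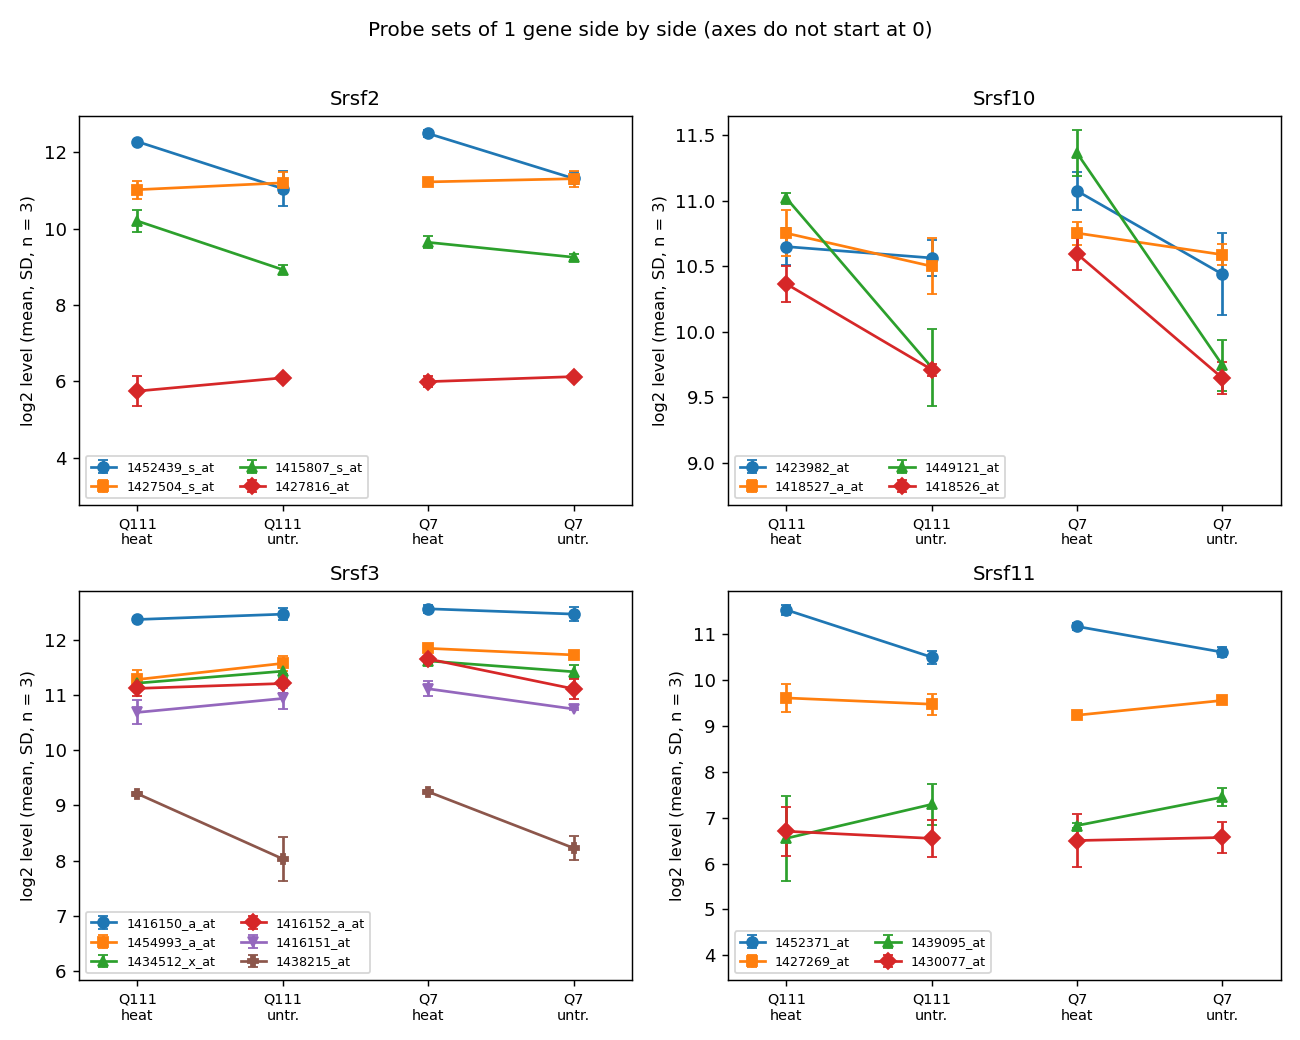
Mean log2 level and SD (n = 3) of every probe set of Srsf2, Srsf10, Srsf3 and Srsf11 in heat-shocked and untreated Q111 cells (left pair) and heat-shocked and untreated Q7 cells (right pair); lines join the 2 groups of a line, and the vertical axes do not start at 0. Within each gene at least 1 line slopes steeply down toward the untreated cells while others are nearly flat or slope the other way, as for Srsf2 1452439_s_at against 1427504_s_at.

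The responses of the lines were compared by the difference of their heat shock effects. None of the 33 probe sets passed in limma, beside 2.68% of all probe sets, while 7 had an unadjusted p under 0.05. The smallest adjusted p, 0.0584, belonged to Srsf5, whose fall was deeper in Q111 cells by -1.07 (SE 0.26, 95% interval -1.65 to -0.49). With 1 brightest probe set for each of 18193 genes its adjusted p was 0.0354, where 5.72% of genes were called. The probe set next in order was Srsf2 1415807_s_at at 0.89 (SE 0.23, adjusted p = 0.0726). Without untreated replicate 2 of Q111 cells Srsf5 passed at -1.26 (adjusted p = 0.036), and without heat-shocked replicate 3 of Q111 cells 1415807_s_at passed at 1.04 (adjusted p = 0.0253). For the 5 Srsf3 probe sets other than 1438215_at the difference ran between -0.63 and -0.19, and 3 of them were among the 7. These probe sets measure the same gene and are not independent. For Clk1 the difference was -0.27 (95% interval -0.91 to 0.37), and for Clk4 it was -0.12 (95% interval -0.76 to 0.52) and 0.00 (95% interval -1.01 to 1.02), so differences of this size in either direction were not resolved.

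After heat shock 6 probe sets differed between the lines, 3 higher and 3 lower in Q111 cells, beside 15.4% of all probe sets (4.73% higher and 10.7% lower). Srsf5 was lower by -1.07 in Q111 cells (SE 0.19, adjusted p = 0.00291), which is 2.10-fold lower, and kept this call in all 23 alternatives. Srsf3 was lower by 1454993_a_at at -0.57 (SE 0.13, adjusted p = 0.0161) and by 1416152_a_at at -0.54 (SE 0.15, adjusted p = 0.0351). For 1454993_a_at the arrays read 11.21, 11.49 and 11.17 in heat-shocked Q111 cells, against 11.93, 11.84 and 11.79 in heat-shocked Q7 cells, with no overlap. Higher in Q111 cells were Srsf2 1415807_s_at at 0.56 (SE 0.16, adjusted p = 0.0415), Srsf6 1447898_s_at at 0.54 (SE 0.15, adjusted p = 0.033) and Srsf6 1416720_at at 0.51 (SE 0.15, adjusted p = 0.0466). Called or not, 6 of the 33 were higher and 11 lower in Q111 cells without overlap, beside 31.6% of all probe sets in this comparison. The 6 calls rest on few arrays: 1 remained without heat-shocked replicate 1 of Q7 cells, 2 without replicate 3 of that group, 3 without its replicate 2 and 2 without heat-shocked replicate 1 of Q111 cells.

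At 33 °C none of the 33 probe sets differed between the lines in limma, beside 6.78% of all probe sets. None had an unadjusted p under 0.05 either, and the smallest adjusted p was 0.398. Differences ran between -0.33 and 0.29, at Srsf2 1415807_s_at and Srsf6 1447898_s_at. Srsf5, at 12.04 ± 0.36 in untreated Q111 cells and 12.04 ± 0.18 in untreated Q7 cells (SD, n = 3), had a difference of 0.00 with a 95% interval from -0.41 to 0.41. For Clk1 the interval ran between -0.46 and 0.44, for the brighter Clk4 probe set between -0.37 and 0.54, and for Srsf6 1416721_s_at between -0.16 and 0.42.

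**Figure D4:**
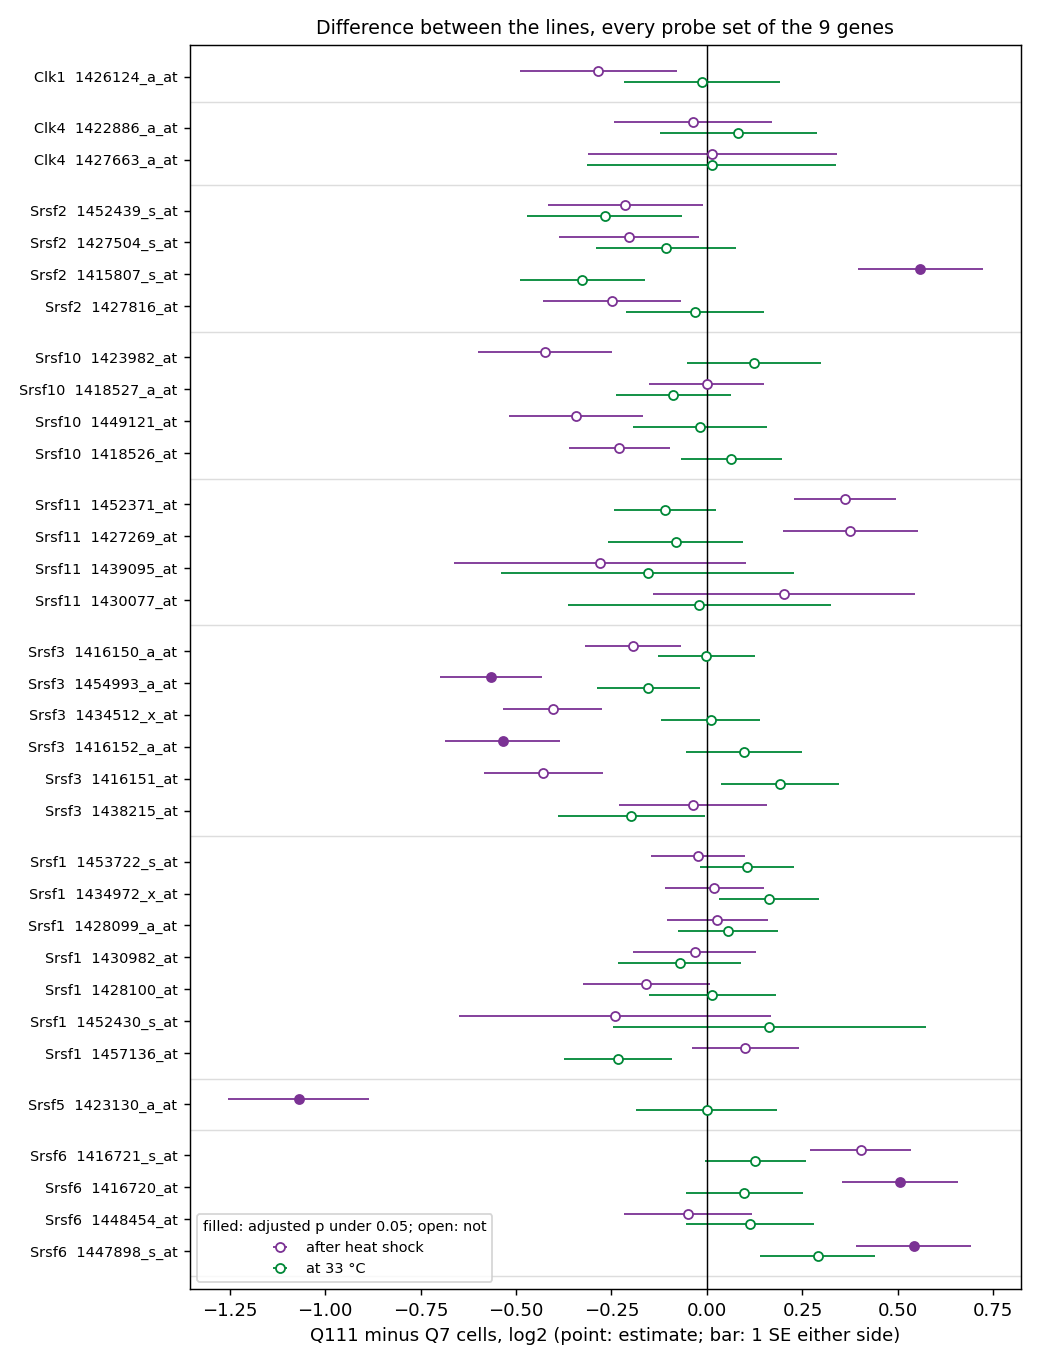
Difference between the lines, Q111 minus Q7 cells in log2 units, of all 33 probe sets; purple is after heat shock, green is at 33 °C, bars are 1 SE either side and filled points passed the adjusted p of 0.05. Green points lie between -0.33 and 0.29 and are all open, whereas 6 purple points are filled, the farthest from 0 being Srsf5 at -1.07.

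Other SR and SR-related genes, counted by their brightest probe set, gave 3 higher and 6 lower of 17 in heat-shocked Q111 cells and 2 higher and 1 lower of 17 in heat-shocked Q7 cells. Over all genes 45.7% were called in Q111 cells (18.5% higher and 27.2% lower) and 28% in Q7 cells (11.2% higher and 16.8% lower). The largest changes in Q111 cells were those of Srrm1, Tra2a and Sfswap. Srrm1, a coactivator for exons with SR-bound enhancers, fell by 1.20 (adjusted p = 0.000848) and was at -0.50 in Q7 cells (adjusted p = 0.0933). Tra2a, an SR-like activator, rose by 1.18 in Q111 cells and 1.16 in Q7 cells (adjusted p = 0.000275 and 0.000467). Sfswap, a splicing regulator, fell by 1.07 in Q111 cells (adjusted p = 0.00465) and was at 0.29 in Q7 cells (adjusted p = 0.438). The median change of the list was -0.17 in Q111 cells and 0.16 in Q7 cells, beside -0.02 and 0.00 over all genes. None of the 17 passed the test of the difference between the lines in limma, beside 3.8% of all genes.

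Of 19 kinase and phosphatase genes that act on SR proteins, or may do so, 6 rose and 3 fell in Q111 cells and 5 rose and 2 fell in Q7 cells, beside the 45.7% and 28% of all genes called. Cdk12, a kinase of RNA polymerase II with an RS domain, fell by 1.85 in Q111 cells (adjusted p = 0.000884) and by 0.99 in Q7 cells (adjusted p = 0.0367). Dyrk3, a kinase that dissolves stress granules and speckles, rose by 1.60 in Q111 and 1.65 in Q7 cells (adjusted p = 0.0069 and 0.00891). Ppp1r8, a nuclear inhibitor of protein phosphatase 1, rose by 1.27 in Q111 and 0.94 in Q7 cells (adjusted p = 0.00482 and 0.0333). The difference between the lines was called for 1 of the 19, Clk2, the relative of Clk1 and Clk4, at -1.64 (SE 0.38, adjusted p = 0.0494), a gene named after its value was seen, beside 3.8% of all genes. Clk2 fell by 0.94 in Q111 cells (adjusted p = 0.0172) and was at 0.70 in Q7 cells (adjusted p = 0.0896). The median change was 0.15 in Q111 cells and 0.01 in Q7 cells.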

How the data were processed

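Total RNA of 12 samples in 4 groups of 3 was hybridised to arrays of 1 colour, and groups came from the sample titles. The authors deposited log2 levels of each probe set, which come from RMA (background correction, normalization between arrays and a summary over probes), per the submitters' processing notes (software version and chip definition not given in the sources used here). Of 45101 probe sets 64 controls were left out. Of the rest 34945 name 1 gene, 932 name several and 9160 are unnamed here, by the platform's annotation updated through gene identifiers (34741 matched). Levels were used as deposited, and scanner files were not used here.

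limma 3.58.1 (R 4.3.3) fitted 4 group means to 45037 probe sets (8 residual and 3.01 prior degrees of freedom) and tested 5 contrasts, two-sided, with p-values adjusted by Benjamini-Hochberg over all probe sets. Within-gene differences were fitted likewise over 16752 differences, and context genes were represented by their brightest probe set, the 1 with the highest mean over the arrays. Scripts were tested on simulated data. Of the context lists up to 3 called genes with the largest change in Q111 cells after heat shock are named, and for Clk1 and Clk4 the 4 genes with the closest profile. The members and the lists were chosen with earlier results of these data known.

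Replicate numbers are those of the titles. Deviations from group means correlated between equal numbers for heat-shocked and untreated Q111 arrays (r = 0.118, 0.257 and 0.304) and for untreated arrays of the lines (r = 0.574, 0.422 and 0.616). These were taken as paired from the data, since the labels do not say so, and the main fit used no pairing. For Q111 cells the values are weak, and heat-shocked replicate 1 correlated more with untreated replicate 2 (r = 0.197). Equal numbers gave r = 0.1175, -0.393 and -0.113 for heat-shocked and untreated Q7 arrays. For heat-shocked arrays of the lines they gave 0.357, -0.511 and -0.269. Neither comparison was taken as paired. Between heat-shocked arrays of unequal number, replicate 3 of Q111 cells gave r = 0.577 with replicate 2 of Q7 cells and -0.503 with replicate 1. Deviations within a group sum to 0, so these values are not independent. Replicates were not duplicates, with 10 to 60 identical values in a pair. Alternatives were other scalings, filters, variance models, array weights, the actin signal as a covariate, a replicate block, an adjusted p under 0.01, and each array left out.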

Additional observations from a re-analysis of the deposited data

Results flagged for a closer look

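Srsf5 drew attention because the difference of its heat shock responses between the lines passed with 1 brightest probe set for each gene. It did not pass in the main fit over all probe sets. Its change after heat shock was -1.67 in Q111 cells and -0.60 in Q7 cells, and the difference of these effects was -1.07 (SE 0.26). The adjusted p in limma was 0.0354 when 1 brightest probe set stood for each of 18193 genes and 0.0584 over all 45037 probe sets. Over 22 alternatives the difference ran between -1.26 and -0.91 and the adjusted p between 0.00241 and 0.161. All 3 arrays of heat-shocked Q111 cells lay below all 3 of heat-shocked Q7 cells, and the arrays of untreated cells overlapped. Srsf5 rests on 1 probe set.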

How the results depend on the processing

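All 13 probe sets called for heat shock in Q111 cells, all 15 in Q7 cells and all 6 between the lines after heat shock kept their direction in the 23 alternatives. Many of these cannot alter a direction, since they leave the estimate as it is and change only its p-value or threshold. Among them are the variance models, the stricter adjusted p and leaving out an array of a group not compared. The call held in every alternative for 8, 1 and 1 of them, and for 5 of 7 and 1 of 9 within-gene differences in Q111 and Q7 cells over 15 alternatives.

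The difference of effects had 1 call with median centring, further quantile normalization, only probe sets above the control level, and a variance trend with or without robust fitting, and 7 with array weights, whose estimation stopped before reaching tolerance. The single call was Srsf5, except under quantile normalization, where it was Srsf2 1415807_s_at. Between the lines after heat shock the count was 3 with median centring, 1 with ribosomal centring, 15 with array weights (52% of all probe sets), 1 with only the groups compared, 3 with the actin covariate and 1 at an adjusted p under 0.01. For heat shock in Q7 cells the count was 1 with the actin covariate and 8 at an adjusted p under 0.01. For within-gene differences in Q7 cells it was 1 with that covariate. Under it 9 of the 15 changes and 8 of the 9 differences were at least as large, with SEs 1.49 to 2.09 times as large. The actin signal did not overlap between heat-shocked and untreated Q7 arrays, so signal and heat shock cannot be told apart there. The cause of the shifts in these counts was not tested.

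Leaving out 1 array gave 0 to 1 calls for the difference of effects, 11 to 14 in Q111 cells, 8 to 17 in Q7 cells, 1 to 6 between the lines after heat shock, 0 at 33 °C, and 6 to 8 and 5 to 10 within-gene differences in Q111 and Q7 cells. With ribosomal centring 10 of the 19 calls in Q111 cells and 8 of the 11 in Q7 cells were shared with those as deposited. The replicate block gave 14, 15, 0, 4 and 0 calls for heat shock in Q111 cells, in Q7 cells, the difference, and the lines after heat shock and at 33 °C, and 9 and 9 within-gene differences, with 1 exchanged for another in Q7 cells. Srsf2 1415807_s_at (adjusted p = 0.0651) and Srsf3 1416152_a_at (0.0593) lost their calls between the lines after heat shock, where arrays of equal number showed no steady correlation. Scanner files were not used, so signal over background was judged only from control probe sets, and 3 arrays a group limit every interval.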

Other observations

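Other parts of the splicing machinery were counted by the brightest probe set of each gene, as values beside those of the SR genes. Of 29 measured genes of the hnRNP group, which often oppose SR proteins at splice sites, 5 rose and 7 fell in heat-shocked Q111 cells and 5 rose and 5 fell in heat-shocked Q7 cells. Over all genes 45.7% and 28% were called. Hnrnpul2 fell by 1.84 in Q111 cells and 1.59 in Q7 cells (adjusted p = 0.00017 and 0.000608). Ptbp2, the neuronal polypyrimidine tract binding protein, rose by 1.30 in Q111 and 0.96 in Q7 cells (adjusted p = 0.000239 and 0.00223), and Hnrnpa0 fell by 0.87 in Q111 and 0.94 in Q7 cells (adjusted p = 0.00164 and 0.00158). The list's median change was 0.05 in Q111 cells and 0.04 in Q7 cells, beside -0.02 and 0.00 over all genes.

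Of 29 measured core spliceosome genes 8 rose and 10 fell in Q111 cells and 4 rose and 7 fell in Q7 cells, beside the same shares of all genes, with medians of -0.19 and -0.21. Prpf31, a component of the tri-snRNP, rose by 2.07 in Q111 and 2.11 in Q7 cells (adjusted p = 7.93e-06 and 9.1e-06). Snrnp70, the U1 snRNP protein contacted by SR proteins, fell by 1.76 in Q111 and 1.15 in Q7 cells (adjusted p = 0.000277 and 0.00498). Sf3a2, of the U2 snRNP, fell by 1.58 in Q111 cells (adjusted p = 0.00117) and was at -0.69 in Q7 cells (adjusted p = 0.0956).

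Nonsense-mediated decay removes transcripts with poison exons, and of its 10 measured genes 1 rose and 4 fell in Q111 cells and 0 rose and 3 fell in Q7 cells, beside 45.7% and 28% of all genes called, with medians of -0.44 and -0.08. Smg6, its endonuclease, fell by 2.79 in Q111 cells and fell by 2.08 in Q7 cells (adjusted p = 3.86e-05 and 0.000303). Smg9 fell by 1.14 in Q111 and 1.16 in Q7 cells (adjusted p = 0.00269 and 0.00369), and Smg5 fell by 1.03 in Q111 and 0.95 in Q7 cells (adjusted p = 0.00574 and 0.0132). In these 3 lists none of the genes passed the test of the difference between the lines. A link between these genes and the probe sets of the SR genes was not tested.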
